A study of Mus musculus with 8 samples.

Results

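Nr4a1, Nr4a2 and Nr4a3 encode the 3 orphan nuclear receptors Nur77, Nurr1 and Nor1, and their transcripts were compared between hematopoietic stem cells of elektra and of wildtype mice. The members were chosen by gene symbol, with earlier results of these data known. The feature of highest mean over the 8 arrays was to be kept where a symbol had several. Each symbol had 1 feature, so that 3 features stood for 3 of the 30802 distinct symbols in the deposited table, and no choice by level was needed. The stem cells came from bone marrow of untreated mice and were sorted as cells without lineage markers that carried c-Kit, Sca-1, CD150 and much CD9 but no CD48. Elektra mice were homozygous for a loss-of-function mutation of Slfn2 (Slfn2 elektra/elektra) on a C57Bl/6 background, and wildtype mice (Slfn2 wt/wt) were their littermates, with 4 Affymetrix arrays for each genotype. The mutation is of the germline, so stem cells and their marrow surroundings were both mutant. By the sample notes the bones of 2 mice were pooled in each sample, while the series' design text counts 4 mice of each genotype in all, and the labels give no ages. If both statements hold, samples of a genotype shared mice, so that the 4 arrays would not be independent animals, and standard errors and p-values here measure only the spread between arrays.

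Nr4a receptors have no known classical hormone ligand, and their activity is set largely by how much of them is made. They are immediate early genes: signals that raise cyclic AMP or calcium act through CREB and MEF2 proteins at their promoters within minutes, without new protein synthesis. The receptors bind the NBRE sequence as single molecules, and Nr4a1 and Nr4a2 also pair with retinoid X receptors. In mouse bone marrow, Nr4a receptors are known for restraining the division of hematopoietic stem cells, and joint loss of Nr4a1 and Nr4a3 leads to myeloid leukaemia.

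The 250 bases before each RefSeq start are shown because the core of the CREB site recurs in all 3. Sequences are from RefSeq, build GRCm38.p6, 5′ to 3′ on the gene's own strand, and capitals mark the CRE core TGACG or, read on the opposite strand, CGTCA. The windows are chr15:101266596-101266845 on the plus strand for Nr4a1, chr2:57124004-57124253 on the minus strand for Nr4a2 and chr4:48045055-48045304 on the plus strand for Nr4a3, each directly upstream of the annotated transcript.
Nr4a1: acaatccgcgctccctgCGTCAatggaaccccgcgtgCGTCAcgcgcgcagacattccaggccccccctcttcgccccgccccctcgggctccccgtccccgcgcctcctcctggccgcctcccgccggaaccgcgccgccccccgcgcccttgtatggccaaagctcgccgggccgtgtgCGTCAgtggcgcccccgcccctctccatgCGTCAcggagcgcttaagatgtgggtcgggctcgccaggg
Nr4a2: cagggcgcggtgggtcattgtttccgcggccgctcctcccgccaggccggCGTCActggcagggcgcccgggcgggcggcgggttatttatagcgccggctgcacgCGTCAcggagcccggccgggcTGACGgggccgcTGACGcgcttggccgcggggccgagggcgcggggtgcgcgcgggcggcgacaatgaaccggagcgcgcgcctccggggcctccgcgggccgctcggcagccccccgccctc
Nr4a3: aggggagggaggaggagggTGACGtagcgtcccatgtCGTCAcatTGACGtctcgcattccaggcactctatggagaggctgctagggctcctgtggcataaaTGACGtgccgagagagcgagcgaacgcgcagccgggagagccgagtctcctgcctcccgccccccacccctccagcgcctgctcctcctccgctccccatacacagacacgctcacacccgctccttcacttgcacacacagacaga

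Each of the 3 windows held 4 CRE cores. In Nr4a1 they began 233, 213, 69 and 40 bases before the start, so that a pair lay close to it. In Nr4a2 they began 200, 144, 123 and 111 bases before the start, and in Nr4a3 231, 213, 205 and 147 bases before it. Of 32851 upstream windows of this length in the table, which lists some genes more than once, 17.8% held at least 1 core and 45, or 0.137%, held at least 4. The windows of the Nr4a genes were rich in G and C, at 74.4% for Nr4a1, 80.0% for Nr4a2 and 63.6% for Nr4a3, and of the 6582 windows at or above 63.6% G and C, 0.38% held 4 or more. The full CRE, TGACGTCA, which contains the core on both strands, was found in none of the 3 windows and in 1.55% of all windows. The receptors' own NBRE, searched as AAAGGTCA on both strands, was in none of the 3 and in 1.34% of all, and the CArG box of serum response factor was in none of the 3 and in 1.47% of all. These are matches of letters within 250 bases, and the arrays carry no measurement of binding.

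**Figure D1:**
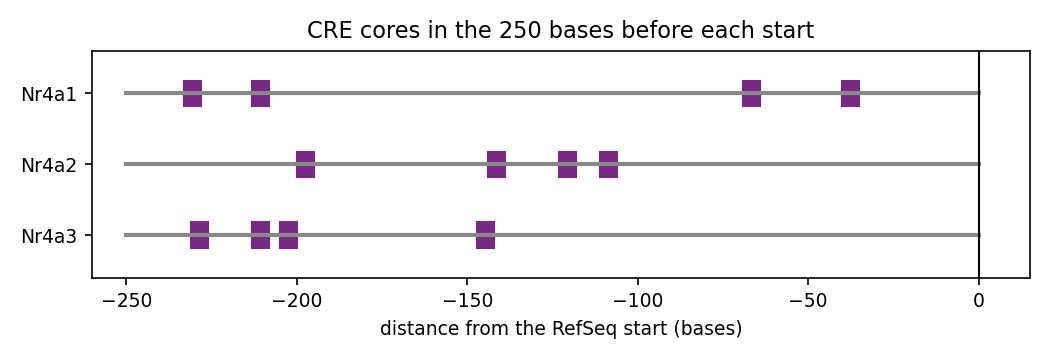
Positions of the CRE core (TGACG on either strand, bars) in the 250 bases before the RefSeq start of each Nr4a gene; the horizontal axis is distance from the start in bases and the vertical line marks the start. Each gene has 4 cores, and those of Nr4a1 form a distal pair and a pair within 69 bases of the start.

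Signals were RMA values on the log2 scale, made by the authors, so a difference of 1 is a factor of 2. Array medians lay between 6.11 and 6.26 and interquartile ranges between 2.41 and 2.67. Precision is limited by the number of arrays: standard errors of the difference had a median of 0.12 over all genes. The labelled cell type was checked against its markers. Of 12 listed stem cell and progenitor markers 11 lay above the level filter of 6.17, with Ly6a (Sca-1) at 12.03 in the mean over arrays. The marker below it was Cd48, at 5.99, against which the cells were sorted. Flt3, listed as a marker to be absent from these cells, was among the 11, at 7.22. Of 4 measured T and NK cell markers and 4 mast cell and basophil markers, 0 lay above the filter, and of 5 B cell markers only Cd79b did. Above it lay 3 of 6 granulocyte, 3 of 5 measured monocyte and macrophage, 2 of 4 measured erythroid, 4 of 5 megakaryocyte and 4 of 6 stroma and endothelium markers, the highest being Pf4 at 9.10 and Pecam1 at 8.67. Xist was low on elektra replicate 3 and wildtype replicate 3 and high on the other 6 arrays. In sorted bulk samples, fewer cells that hold a transcript and less of it per cell cannot be told apart.

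Nr4a1 (Nur77) was the Nr4a transcript in which the genotypes separated. Elektra replicates 1 to 4 read 10.04, 9.60, 9.95 and 9.66. Wildtype replicates 1 to 4 read 10.67, 10.39, 10.73 and 10.32. All 4 elektra arrays lay below all 4 wildtype arrays, with 0.28 between the highest elektra and the lowest wildtype array, and replicates 1 and 3 were the higher in either genotype. The mean was 9.81 ± 0.21 for elektra and 10.52 ± 0.20 for wildtype (SD, n = 4 each), so elektra minus wildtype came to -0.71 ± 0.13 (SE) on the log2 scale. On the linear scale the elektra level was 1.64-fold lower, with a 95% interval of 1.33-fold to 2.01-fold. This difference did not pass adjustment over all 15710 genes tested (limma adjusted p = 0.132), although its unadjusted p was 0.000308, the 36th smallest, and by size it was the 32nd most negative difference. In the authors' deposited table the fold change was -1.64, a reciprocal, and the p-value 0.00284, which is not adjusted. Of all genes tested, 2.37% had non-overlapping groups with elektra lower, and 0.0382% passed the adjusted threshold of 0.05 in either direction.

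Nr4a2 (Nurr1), the receptor best known from dopamine neurons, did not separate the genotypes. Elektra replicates 1 to 4 read 9.30, 9.01, 9.22 and 8.93, against 9.60, 9.23, 9.58 and 8.56 for wildtype replicates 1 to 4. The elektra values thus lay inside the wildtype range, which was 1.04 wide against 0.37 in elektra, and wildtype replicate 4 was the lowest array of all. Mean signals were 9.11 ± 0.17 for elektra and 9.25 ± 0.49 for wildtype (SD, n = 4 each), and the log2 difference was -0.13 ± 0.21 (SE), its 95% interval running from -0.59 to 0.33 (limma adjusted p = 0.846). The difference was -0.36 without wildtype replicate 4 (limma adjusted p = 0.393), -0.012 without wildtype replicate 1 and -0.018 without wildtype replicate 3.

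Nr4a3 (Nor1) also overlapped between genotypes, at a signal just above the level filter. Elektra replicates 1 to 4 read 6.49, 6.28, 6.12 and 6.16, against 6.66, 6.32, 6.81 and 6.06 for wildtype replicates 1 to 4. Wildtype replicate 3 was highest and wildtype replicate 4 lowest, with all elektra arrays between them. Mean signals were 6.26 ± 0.17 for elektra and 6.46 ± 0.34 for wildtype (SD, n = 4 each), and the log2 difference was -0.20 ± 0.16 (SE), its 95% interval running from -0.56 to 0.16 (limma adjusted p = 0.659). It was -0.33 without wildtype replicate 4 and -0.085 without wildtype replicate 3, and -0.037 without both arrays of low Xist. Its mean over the 8 arrays, 6.36, was 0.19 above the filter, and 8.29% of the genes tested had a lower mean. Near background, array signals are known to understate fold differences. With all 3 members above the filter, limma passed 0 of 3 after adjustment, and 1 of 3, Nr4a1, at an unadjusted p of 0.05 as lower, where 3.95% of all genes tested were lower at that threshold. All 3 differences were negative, as were 46.9% of those of all genes. The family was chosen with the Nr4a1 result known, so these counts are not independent of that choice.

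**Figure D2:**
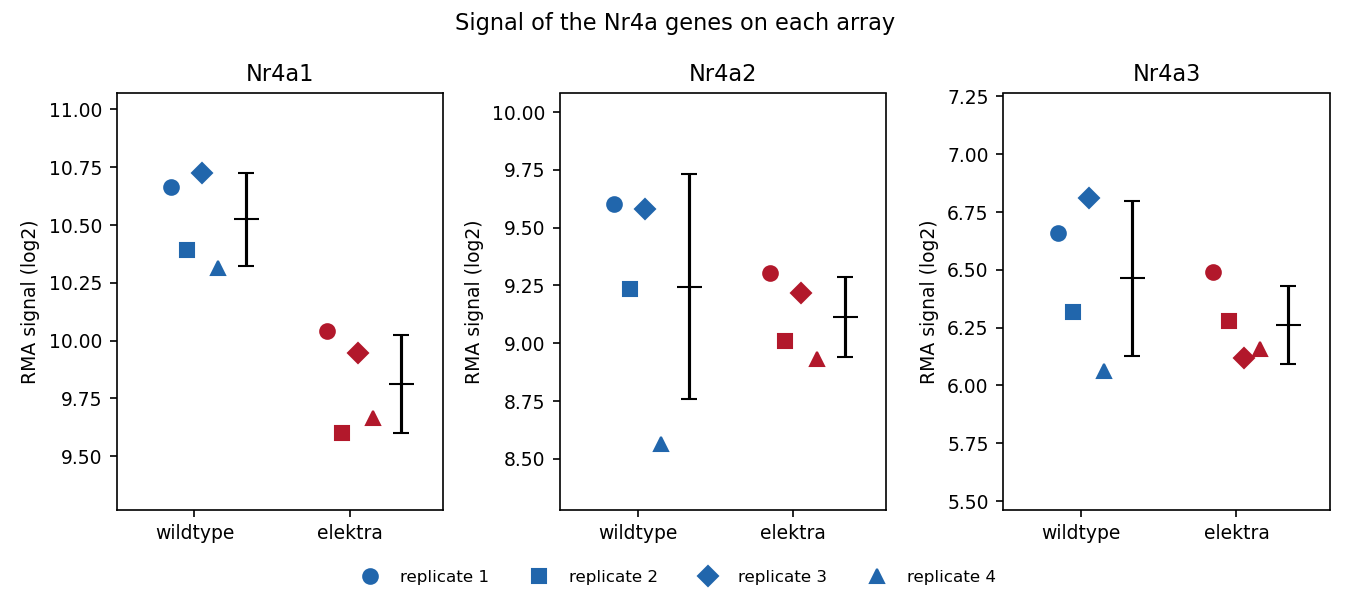
RMA signal (log2) of each Nr4a gene on the 8 arrays, by genotype; symbols mark the replicate number, and the black dash and bars give the mean ± SD of 4 arrays. For Nr4a1 the elektra arrays lie at 9.60 to 10.04 and the wildtype arrays at 10.32 to 10.73, while for Nr4a2 and Nr4a3 the genotypes overlap. Each panel spans the same log2 range.

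The genotype difference was larger for Nr4a1 than for its paralogs on the same arrays. The difference between paralogs was taken within each array on the log2 scale and compared between genotypes, for 3 pairs. For Nr4a1 against Nr4a2 it was -0.58 with a standard error of 0.16, and all elektra arrays lay below all wildtype arrays (exact two-sided permutation p = 0.0286, 0.0429 adjusted over the 3 pairs). For Nr4a1 against Nr4a3 it was -0.51 with a standard error of 0.13, again without overlap (exact two-sided permutation p = 0.0286, 0.0429 adjusted over the 3 pairs). For Nr4a2 against Nr4a3 it was 0.071 with a standard error of 0.13 (exact two-sided permutation p = 0.6), and its sign changed with the setting, as under quantile normalization (-0.036). The value of 0.0286 is the smallest that 70 relabellings of 4 and 4 arrays can give. The family was chosen with the Nr4a1 result known, so these tests are not independent of that choice. With 1 elektra array left out in turn, both contrasts with Nr4a1 kept an exact two-sided permutation p of 0.0286 (0.0429 adjusted over the 3 pairs). With any 1 wildtype array left out, Nr4a1 against Nr4a3 rose to p = 0.0571 by that exact test, and both contrasts with Nr4a1 to 0.0857 after adjustment. The unequal difference was smallest without wildtype replicate 4, at -0.42 for Nr4a1 against Nr4a2, and without elektra replicate 2 for Nr4a1 against Nr4a3, at -0.43.

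Nr4a1 kept its direction and approximate size in each of 19 alternative settings. Its log2 difference ranged from -0.79 without elektra replicate 1 to -0.64 without elektra replicate 2, and its limma adjusted p from 0.0547 (variance trend with robust estimation) to 0.347 (array spread as a covariate). It passed the adjusted threshold in 0 of the 19 and an unadjusted p of 0.05 in all 19. Nr4a2 stayed negative in all 19 and reached an unadjusted p of 0.05 in 1, without wildtype replicate 4. Nr4a3 stayed negative in the 18 settings that kept it above the filter and likewise reached that threshold only without wildtype replicate 4.

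**Figure D3:**
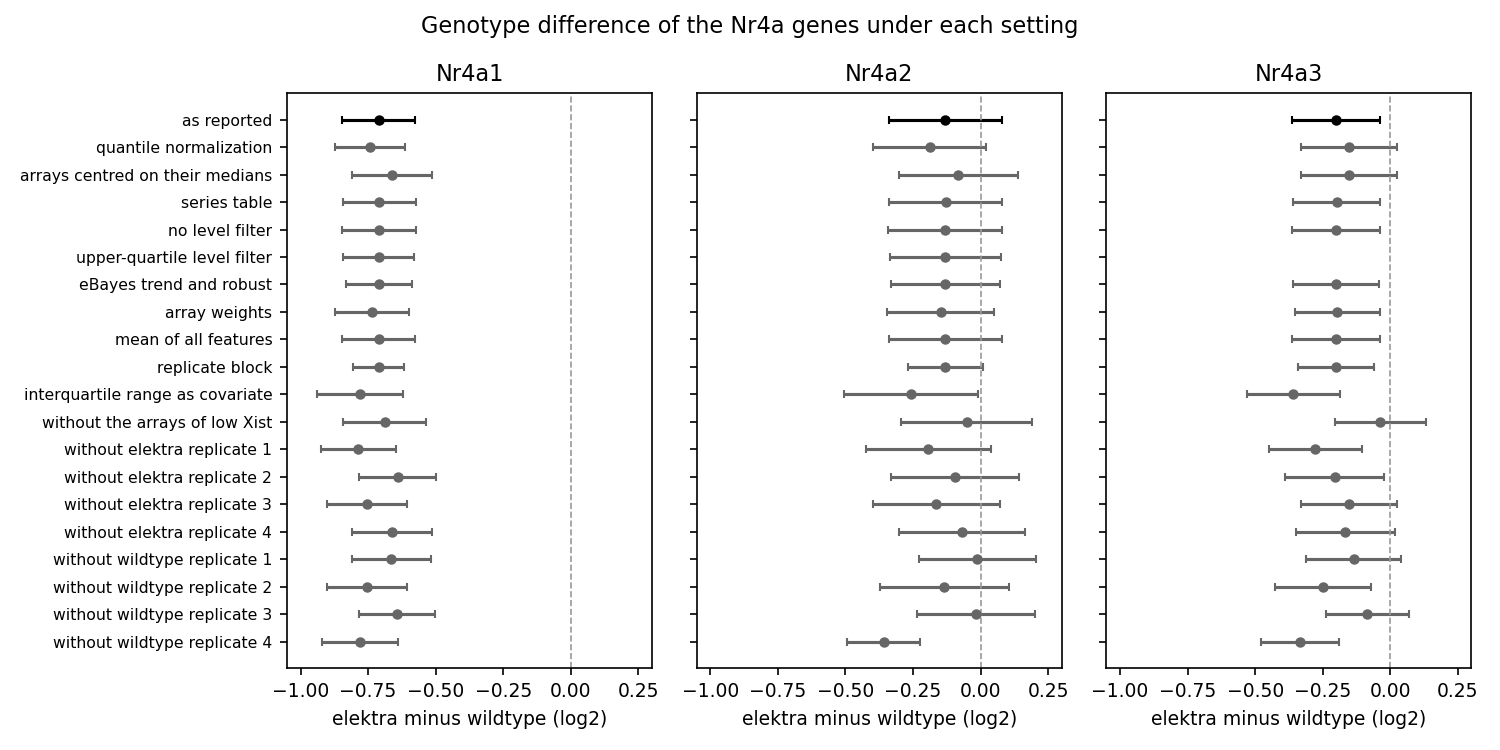
Log2 difference, elektra minus wildtype, of each Nr4a gene under each setting; points are limma estimates and bars 1 standard error, and the dashed line marks no difference. Nr4a1 stays between -0.79 and -0.64, Nr4a2 between -0.36 and -0.012 and Nr4a3 between -0.36 and -0.037; Nr4a3 has no value under the upper-quartile filter.

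The 3 transcripts varied together between arrays of the same genotype. As a description over 8 arrays that share their normalization, Pearson's r after removing each genotype's mean was 0.81 for Nr4a1 with Nr4a2, 0.74 for Nr4a1 with Nr4a3 and 0.87 for Nr4a2 with Nr4a3. With the genotype means left in, r was 0.54, 0.66 and 0.86, lower than within genotypes for both pairs with Nr4a1. Nr4a1 had a pooled SD within genotype of 0.21, Nr4a2 of 0.36 and Nr4a3 of 0.27, where the median of all genes tested was 0.17.

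Other immediate early genes mostly had negative differences too. Of a list of 54 such genes 53 were tested, and 42 of them had a lower mean in elektra, where 46.9% of all genes tested did. Their median log2 difference was -0.18 against 0.012 over all genes tested. At an unadjusted p of 0.05 limma counted 17 as lower and 2 as higher, where 3.95% of all genes were lower and 7.02% higher, and 0 of the 53 passed adjustment over all genes. The groups did not overlap for 3 of the 53, all lower in elektra, namely Kdm6b at -0.33, Zfp36 at -0.33 and Arc at -0.18, where 2.37% of all genes did so (Zfp36 and Arc are named after their values were seen). The 6 members of smallest p were the histone demethylase gene Kdm6b, the phosphatase gene Dusp2 at -0.50, the RNA decay factor gene Zfp36l1 at -0.37, the transcription factor genes Egr1 at -0.57 and Junb at -0.48, and the phosphatase gene Dusp1 at -0.42 (limma adjusted p from 0.298 for Kdm6b to 0.359 for Dusp1). The 17 lower genes had log2 differences between -0.67 and -0.33, so Nr4a1 at -0.71 lay just beyond their range. With single arrays left out, the count of 17 became 7 (wildtype replicate 3), 9 (wildtype replicate 1 or elektra replicate 2) or 10 (elektra replicate 4), and it was 6 with array spread as a covariate. The list was drawn up with earlier results of these data known.

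Array by array, the Nr4a genes varied together with the other early genes. The mean of the 53 genes, each centred on its own mean, lay at -0.20 to 0.084 on elektra arrays against -0.062 to 0.33 on wildtype arrays, so that this mean overlapped between genotypes while Nr4a1 did not. Elektra replicate 3 stood at 0.084 for the early genes and 9.95 for Nr4a1. Wildtype replicate 2 stood at -0.041 and 10.39, and wildtype replicate 4 at -0.062 and 10.32. The part of the early gene level in the Nr4a1 difference was not tested. Over 8 arrays r with the early gene mean was 0.83 for Nr4a1, 0.71 for Nr4a2 and 0.70 for Nr4a3, and after removing genotype means it was 0.84, 0.75 and 0.63. Of the 53 genes, 45 correlated positively with Nr4a1, 46 with Nr4a2 and 44 with Nr4a3, with genotype means left in. The share of all genes tested that did so was not counted, so these counts cannot be read as a trait of early genes. The stress-inducible heat shock gene Hspa1a also varied widely, at 8.70, 5.86, 10.87 and 6.75 on elektra replicates 1 to 4 and 10.39, 10.80, 10.87 and 8.22 on wildtype replicates 1 to 4. The Hspa1a signal was lowest on elektra replicates 2 and 4, the arrays that were also lowest for Nr4a1. The mean of 11 heat shock genes ran from -0.48 to 0.40 in elektra and from -0.30 to 0.28 in wildtype, and its part in the Nr4a difference was not tested.

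**Figure D4:**
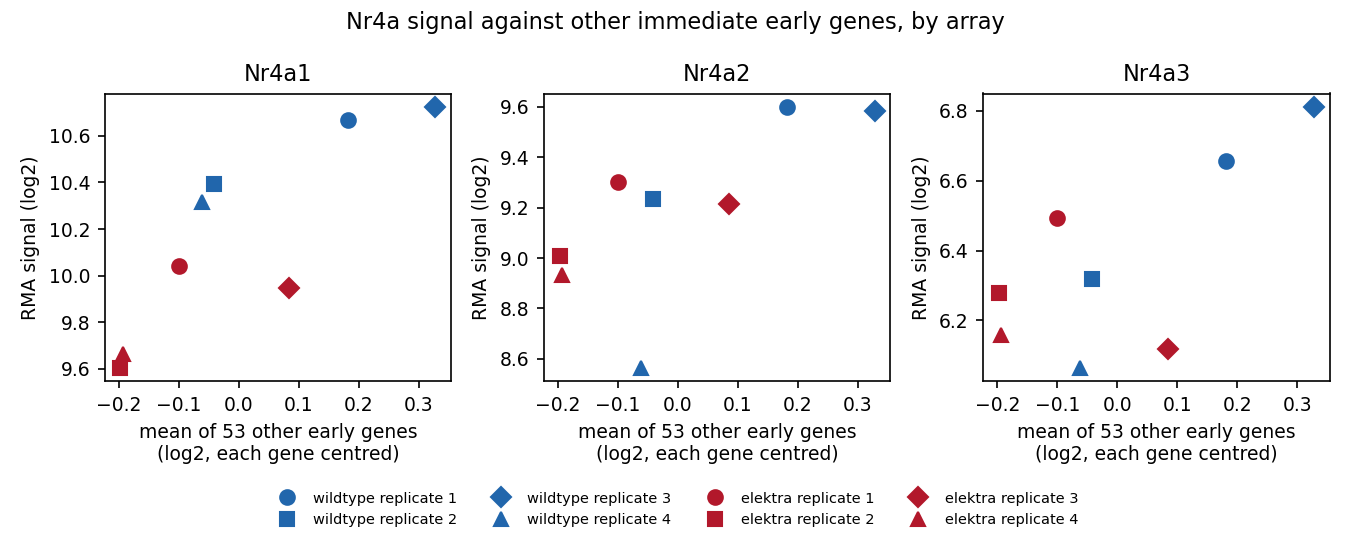
RMA signal (log2) of each Nr4a gene (vertical axes) against the mean of 53 other immediate early genes, each centred on its own mean (horizontal axes, log2), with 1 point per array; colour gives genotype and symbol the replicate number. The early gene mean spans -0.20 to 0.33. For Nr4a1 all elektra arrays lie below all wildtype arrays, with elektra replicate 3 at 0.084 and 9.95 and wildtype replicate 2 at -0.041 and 10.39.

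Genes driven by cyclic AMP and CREB in other tissues were mostly below 0, but many of them are early genes counted above. Of 12 listed, 10 were tested and 9 had a lower mean in elektra, where 46.9% of all genes did. The median log2 difference of the 10 was -0.20. Of the 10, 6 were also in the early gene list, among them each of the 4 named here, and the 4 outside that list all had a lower mean. At an unadjusted p of 0.05 limma counted 1 of the 10 as lower, Dusp1 at -0.42, where 3.95% of all genes were lower, and 0 as higher, and it passed 0 over all genes. The salt-inducible kinase gene Sik1 was at -0.36, the clock gene Per1 at -0.28 and Fos at -0.25 (limma adjusted p = 0.473, 0.507 and 0.538). Crem, the cyclic AMP response modulator, and Areg lay below the level filter.

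The machinery upstream of the Nr4a genes had differences of both signs. Of 38 kinases, coactivators and transcription factors 37 were tested, 17 negative and 20 positive, with a median log2 difference of 0.0055. At an unadjusted p of 0.05 limma counted 1 lower and 2 higher of the 37, where 3.95% of all genes were lower and 7.02% higher, and it passed 0 over all genes. Mapk3, which encodes the kinase ERK1, read 9.54, 9.66, 9.87 and 9.71 on elektra replicates 1 to 4 against 10.01, 10.12, 10.01 and 10.31 on wildtype replicates 1 to 4. The genotypes did not overlap for Mapk3, with elektra lower at -0.42 ± 0.11 (SE, log2; limma adjusted p = 0.262). Prkaca, a catalytic subunit of protein kinase A, was at 0.54 (limma adjusted p = 0.333). Prkar1a, the regulatory subunit of that kinase, was at 0.20. Of 9 genes for prostaglandin E, adrenergic and adenosine receptors that raise or lower cyclic AMP, 7 were tested and 0 reached an unadjusted p of 0.05 in either direction with limma, with a median of 0.0032. Ptger3 was at 0.20, Adrb1 at -0.12 and Ptger4 at 0.092.

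Among partner proteins and cofactors, 11 of 12 were tested, 5 negative and 6 positive, with a median log2 difference of 0.015. The coactivator gene Ncoa1 was at -0.20, the demethylase gene Kdm1a at 0.21 and Stk11, which encodes the kinase LKB1 that Nur77 binds, at 0.17. Limma passed 0 of the 11 over all genes.

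Genes reported as Nr4a targets in other work had differences of both signs. Of 23 listed, 13 were tested, 8 negative and 5 positive, with a median log2 difference of -0.083, and limma passed 0 over all genes. Cdkn2c, which encodes the cell cycle inhibitor p18 and lies downstream of Nurr1 in mouse stem cells, was at 7.00 ± 0.13 in elektra and 6.75 ± 0.05 in wildtype (SD, n = 4 each), a difference of 0.25 with a standard error of 0.093 (limma adjusted p = 0.380). The 4 elektra arrays of Cdkn2c lay above the 4 wildtype arrays, and 3.9% of all genes did so. Fbp1, a gluconeogenesis gene induced by Nur77 in liver, was at 0.64 without overlap (limma adjusted p = 0.269). Slc6a3 and Slc18a2, the dopamine and monoamine transporter genes that Nurr1 controls in neurons, were at -0.31 and -0.16. For Slc18a2 the groups did not overlap, with elektra lower. Of the 13 genes, 2 were lower and 2 higher without overlap, where 2.37% and 3.9% of all genes were. The 2 higher were Cdkn2c and Fbp1, and Fbp1 was tested only through its elektra level. Cebpa, a myeloid regulator linked to Nr4a1 and Nr4a3 in mouse stem cells, lay below the level filter at 5.81 in elektra and 5.78 in wildtype.

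Other nuclear receptors leaned the same way with smaller differences. Of 46 listed, 28 were tested, 21 negative and 7 positive, where 46.9% of all genes were negative, with a median log2 difference of -0.11. At an unadjusted p of 0.05 limma counted 4 lower, where 3.95% of all genes were, among them the retinoic acid receptor gene Rarb at -0.33, the liver X receptor gene Nr1h2 at -0.23 and the thyroid hormone receptor gene Thrb at -0.29. The estrogen receptor gene Esr1 was the 1 higher, at 0.38, and 0 passed over all genes (limma adjusted p from 0.383 for Rarb to 0.435 for Esr1). Among the Nr4a genes and these 28, Nr4a1 had the most negative difference, and its unadjusted limma p of 0.000308 was below that of each of the 28. The Nr4a family was chosen with the Nr4a1 result known, so this rank is not independent of that choice.

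**Figure D5:**
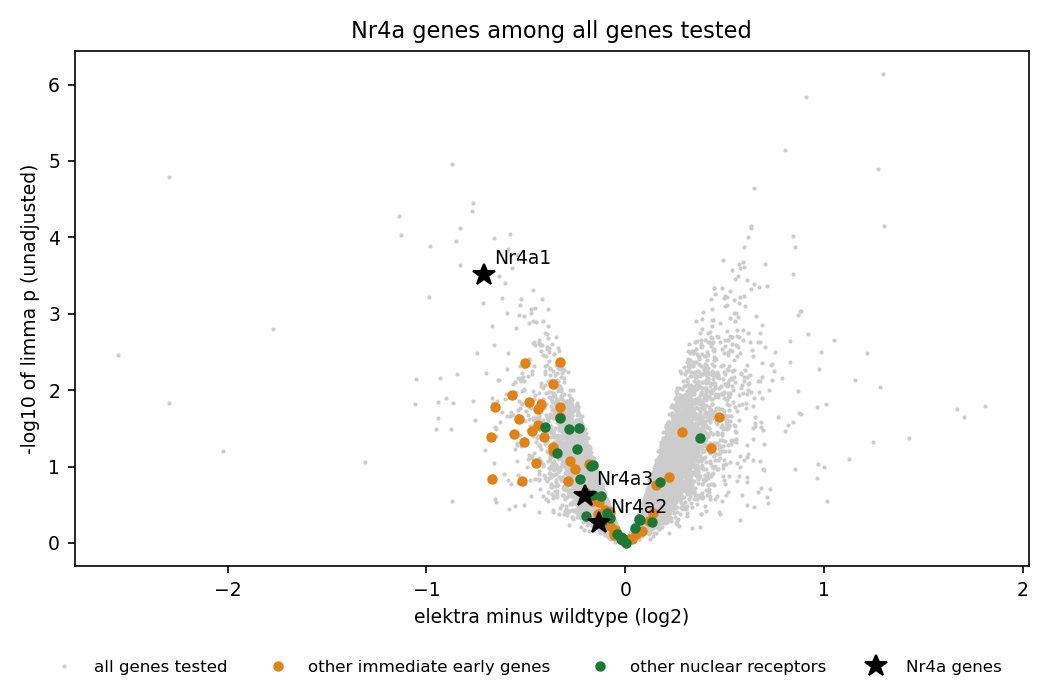
Log2 difference, elektra minus wildtype (horizontal axis), against -log10 of the unadjusted limma p (vertical axis) for 15710 genes tested; stars mark the Nr4a genes, orange points 53 other immediate early genes and green points 28 other nuclear receptors. Nr4a1 at -0.71 lies apart from both lists, and Nr4a2 and Nr4a3 lie among them.

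Cell division genes were described because Nr4a receptors are known to restrain stem cell division, and their differences were all positive. The 22 listed genes were all tested, and all 22 means were higher in elektra, with a median log2 difference of 0.31. Of all genes tested, 46.9% had a lower mean in elektra. At an unadjusted p of 0.05 limma counted 14 higher and 0 lower, where 7.02% of all genes were higher, and it passed 0 over all genes. Ccnb2, a mitotic cyclin gene, was at 0.68, Ccne2, a cyclin gene of the G1 to S transition, at 0.43, and the replication helicase genes Mcm4 and Mcm6 at 0.40 and 0.29 (limma adjusted p = 0.256, 0.359, 0.359 and 0.359). The list's centred mean lay at 0.029 to 0.35 on elektra arrays against -0.40 to -0.010 on wildtype arrays. On elektra replicate 2, the array of lowest Nr4a1, this mean was 0.029, the lowest of the elektra arrays. The list was drawn up with earlier results of these data known, and a link between these genes and the Nr4a1 difference was not tested.

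Markers of other cells were set beside the Nr4a1 difference, since monocytes and T cells also carry Nr4a1. Of 5 measured monocyte and macrophage markers 3 lay above the filter, and the log2 sum of their signals ran from 9.08 to 9.29 in elektra and from 9.06 to 9.45 in wildtype. Cx3cr1 was at -0.38 (limma adjusted p = 0.5), Lyz2 at 0.00011 and Csf1r at -0.0050, while Ccr2 read 4.61 in elektra and 4.49 in wildtype. The T and NK cell markers summed to 7.36 to 7.57 in elektra against 7.35 to 7.62 in wildtype, with Cd3e, Cd3d, Cd3g and Ncr1 all below the filter. Megakaryocyte markers summed to 10.82 to 10.94 in elektra against 10.50 to 10.61 in wildtype. Of them Pf4 at 0.61 and Itga2b at 0.39 were higher without overlap (limma adjusted p = 0.142 and 0.195), where 3.9% of all genes were. Gp1bb was at 0.070 and Gp9 at 0.014, both with overlap. Ppbp lay below the filter, at 6.15 in elektra and 6.10 in wildtype. Granulocyte markers summed to 8.45 to 10.50 in elektra against 8.66 to 9.38 in wildtype, and the 10.50 was of elektra replicate 4 alone, the other elektra arrays lying at 8.45 to 8.54. Without elektra replicate 4 the log2 difference of Nr4a1 was -0.66, a value that does not separate granulocyte signal from other traits of that array. Erythroid markers summed to 8.31 to 8.69 in elektra against 8.32 to 8.73 in wildtype, stroma and endothelium markers to 9.78 to 9.88 against 9.69 to 9.79. B cell markers summed to 8.38 to 8.67 in elektra against 8.47 to 8.62 in wildtype, and mast cell and basophil markers to 6.90 to 7.32 against 6.59 to 7.10. The part of these markers in the Nr4a1 difference was not tested.

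The 5 genes whose patterns were most like each Nr4a gene over the 8 arrays lay outside the early gene list. That list holds 53 of the 15710 genes tested, so this cannot be read as a trait of the Nr4a genes. For Nr4a1 they were the ferritin light chain gene Ftl1 (Pearson's r = 0.98), the serpin gene Serpinb6a (0.98), Hid1 (0.97), the cadherin gene Cdh23 (0.96) and the corepressor gene Bcorl1 (0.96). Of these, Cdh23 had the most negative difference, -0.66 (limma adjusted p = 0.0844), and Ftl1 was at -0.39 with elektra replicates 1 to 4 at 10.61, 10.38, 10.60 and 10.50 against wildtype replicates at 10.95, 10.84, 10.99 and 10.86. For Nr4a2 they were the lipid synthesis gene Agpat2 (r = 0.98), Zscan18 (0.96), Snx32 (0.95), Rassf2 (0.95) and Smim11 (0.93), each with a log2 difference between -0.061 and -0.0025. For Nr4a3 they were the transcription factor gene Mlx (r = 0.97), the checkpoint gene Atrip (0.95), Raph1 (0.94), Nfrkb (0.94) and Taar1 (0.94). After removing genotype means r lay between 0.81 for Cdh23 and 0.92 for Ftl1 among the genes like Nr4a1. These correlations rest on 8 arrays and were the highest among 15710 genes, so they describe these arrays only.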

How the data were processed

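Total RNA of sorted stem cells, about 200 pg with 12 PCR cycles, was hybridized on 1 Affymetrix array per sample, 4 of each genotype. RMA in Affymetrix Expression Console 1.4 gave the authors' log2 signals, per the submitters' processing notes. The deposited workbook of 33793 features also holds the authors' unadjusted p-value and their signed fold score, in which a lower gene has the negative reciprocal. The deposited series table (41345 features) differed from it by at most 0.16 log2 and served as an alternative. Array design and annotation release: not given in the sources used here.

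The test covered 15710 genes: features with a single symbol whose mean reached the median of all feature means, 6.17, with the highest feature kept per symbol. Elektra minus wildtype was fitted with limma 3.58.1 in R 4.3.3 (lmFit, eBayes, two-sided, no covariates), with Benjamini-Hochberg adjustment over all genes and a threshold of 0.05. P-values measure the spread between arrays. Paralogs were compared by exact permutation.

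Members and gene lists were chosen with earlier results of these data known. Named are the 3 members, the 4 tested genes of smallest p per list (6 for early genes), markers, and the 5 genes most correlated with each member, without predicted, small RNA and smell or taste receptor genes. Some genes that this rule names are not reported here. Of 30802 symbols, 26732 were found in the RefSeq table of GRCm38.p6, where 3 members had promoter windows.

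Replicate numbers recur in both genotypes. The deviations of same-numbered arrays correlated between -0.0017 and 0.14, above 0.1 for 2 of 4 pairs, so the main fit did not pair samples. Xist was low on replicate 3 of both genotypes, so a pairing by number was not excluded. Alternatives were other normalizations, filters, variance models and the series table, array weights, mean of features, a replicate block, array spread as a covariate, and leaving out single arrays or the 2 arrays of low Xist.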

Additional observations from a re-analysis of the deposited data

Results flagged for a closer look

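In 3 of 110 groups of 4 arrays, taken over the 55 named genes, 1 array stood far from the other 3, where chance gives about 1 in 20 groups, or 5.5. No array of an Nr4a gene did. The heat shock gene Hspa1b read 7.57 on wildtype replicate 4 against 9.35 to 9.71 on the other wildtype arrays, and the coactivator gene Ncoa1 read 8.28 on that array against 8.79 on the others. That array was also the lowest wildtype array for Nr4a1, Nr4a2 and Nr4a3. The retinoic acid receptor gene Rarb read 6.60 on wildtype replicate 2 against 6.94 to 6.98.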

How the results depend on the processing

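All differences of Nr4a1 (19 settings), Nr4a2 (19) and Nr4a3 (18, as it falls below the upper-quartile filter) stayed negative and short of the adjusted threshold. Nr4a1 against Nr4a2 stayed between -0.65 and -0.42 and against Nr4a3 between -0.65 and -0.43 over 14 settings each. With single arrays left out they ran from -0.65 to -0.42 and from -0.60 to -0.43. Their exact two-sided permutation p stayed at 0.0286 in 8 of 8 such settings for Nr4a1 against Nr4a2 and in 4 of 8 for Nr4a1 against Nr4a3, where it was 0.0571 without any 1 wildtype array, and 4 of 8 passed 0.05 for each after adjustment over the 3 pairs. Without the arrays of low Xist, and paired by number, the contrasts are values with no test, since the exact test cannot go below 0.1 and 0.125. Nr4a2 against Nr4a3 turned from 0.071 to -0.036 with quantile normalization and to -0.015 without the arrays of low Xist, and ran from -0.024 to 0.12 with single arrays left out. Genes past the adjusted threshold numbered 6 as reported, 3 with arrays centred on their medians or with no level filter, 13 with the upper-quartile filter, 18 with the variance trend, 2 without the arrays of low Xist, and 0 with array spread as a covariate or with a replicate block. With single arrays left out they numbered 0 to 4, with 0 without elektra replicate 4. Early genes lower at an unadjusted p of 0.05 numbered 17 as reported, 6 with array spread as a covariate and 7 to 22 with single arrays left out. The causes were not tested. With replicate number as a block Nr4a1 was at -0.71 with a standard error of 0.093 (limma adjusted p = 0.116), Nr4a2 at -0.13 and Nr4a3 at -0.20, and 25 early genes were lower, and 4 of 8 arrays correlated best with the array of their own number. The number of arrays, and for Nr4a3 its signal near the filter, limit what could be detected.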
